A study of Mus musculus with 30 samples.

Results

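The genes described here bring iron into mitochondria and assemble iron-sulfur clusters: the carriers *Slc25a37* (mitoferrin 1) and *Slc25a28* (mitoferrin 2), the core assembly genes *Iscu*, *Nfs1* and *Lyrm4*, the cochaperone gene *Hscb*, and the later-acting *Glrx5*, *Isca1* and *Isca2*. They were chosen by name, each as the row of the count table whose Ensembl identifier carries that symbol, and are 9 of the 54532 genes listed. Transcripts were measured by RNA-seq in murine erythroleukemia (MEL) cells, a mouse line arrested at an early erythroid stage that makes hemoglobin when treated with dimethyl sulfoxide (DMSO). WT MEL cells (DS19 clone) and Abcb10-null MEL cells were compared before DMSO (day 0) and at days 2 and 5 of treatment with DMSO at 1.5%, with 5 libraries for each genotype and day and 30 in all. The Abcb10-null cells were 1 clone (clone 12), made by lentiviral CRISPR/Cas9 directed at exon 1 of *Abcb10*, so that the loss of Abcb10 and the history of this clone cannot be told apart in any comparison of genotypes. The labels mark the libraries of a group as biological replicates, and p-values measure the spread between them. The comparison of genotypes asks which transcripts depend on the presence of Abcb10 as the cells differentiate.

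Mitoferrins are inner membrane carriers that move iron into the matrix, and mitoferrin 1 is the form that erythroid cells use to supply heme synthesis. In the matrix, the cysteine desulfurase Nfs1, stabilized by the small protein Lyrm4 (Isd11), hands sulfur to the scaffold Iscu, on which a [2Fe-2S] cluster is built. Hscb and the Hsp70 chaperone Hspa9 release the cluster from the scaffold, Glrx5 relays it, and the A-type proteins Isca1 and Isca2 take part in making [4Fe-4S] clusters. In erythroid cells these clusters are needed by ferrochelatase (Fech), the last enzyme of heme synthesis, and by Aco1, which reads cellular iron as iron regulatory protein 1. Abcb10 is an inner membrane transporter that is induced by GATA1 during erythroid differentiation.

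Levels are counts per 1000000 (CPM), that is read counts over the library total after TMM scaling, and group values are mean ± SD over 5 libraries. Differences are log2 fold changes ± standard error (SE), and a gene was called where the adjusted p of edgeR's quasi-likelihood test, over all genes tested, was under 0.05. Library totals ranged from 9906783 to 20157768 counts, and each of the 9 genes passed the filter on low counts in all 8 comparisons. *Abcb10* itself was read at 131, 126, 120.1, 114 and 120.4 CPM in the WT libraries at day 0 and at 74.2, 79.2, 68.1, 81.3 and 79.6 CPM in the Abcb10-null libraries. At day 5 its range was 1126 to 1244 CPM for WT and 148 to 236 CPM for the null clone, a difference of -2.54 ± 0.12 (adjusted p = 5.51e-08). The transcript was thus lower in each Abcb10-null library but was still read there.

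Some libraries stood apart from others of their group over all genes. At day 2, WT replicates 1 and 2 deviated from the group mean together and against replicates 3 to 5, and Abcb10-null replicates 2 and 5 did so against replicates 1, 3 and 4. At day 5, WT replicates 2 and 5 lay at opposite ends. Calls of the 9 genes that changed without these libraries are given with and without them. In Abcb10-null cells at day 5, replicates 2 and 3 deviated together (r = 0.37) and against replicate 4 (r = -0.55 with each). Replicate 4 also had the lowest library total, 9906783 counts. The Abcb10-null day 5 libraries were left out only 1 at a time. The defining erythroid genes were present: the summed level of 9 erythroid markers rose in WT from 2661 to 2873 CPM at day 0 to 11603 to 23221 CPM at day 5, and was 5248 to 7635 CPM in Abcb10-null cells at day 5. All 9 were called lower in Abcb10-null than in WT cells at day 5. In bulk RNA, fewer cells that had progressed and less RNA per cell cannot be told apart, and this holds for each difference at days 2 and 5. Of 10 markers of other cell types, *Pf4* and *Itga2b*, which megakaryocytes express, made up nearly all of the summed level (at day 5, 251 to 418 CPM for WT and 271 to 593 CPM for the null clone), and their part in the results was not tested.

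On GRCm38 the carriers lie at chr14:69241848-69285112 (*Slc25a37*, minus strand) and chr19:43663801-43674881 (*Slc25a28*, minus strand). The core genes lie at chr5:113772748-113778288 (*Iscu*, plus), chr2:156123639-156144186 (*Nfs1*, minus) and chr13:35978395-36117526 (*Lyrm4*, minus), and *Hscb* at chr5:110829070-110839777 (minus). *Glrx5* lies at chr12:105032688-105042906 (plus), *Isca1* at chr13:59755409-59769810 (minus) and *Isca2* at chr12:84773251-84775088 (plus). All are annotated as protein-coding, and their counts are over all annotated exons. Promoter windows from RefSeq (build GRCm38.p6) were at hand for 6 of the 9 genes: *Slc25a28*, *Nfs1*, *Lyrm4*, *Glrx5*, *Isca1* and *Isca2*. The 250 bases before each start were searched on both strands for AGATAA and its forms with a leading T, TGATAA, or a closing G, AGATAG (read by GATA factors), CCNCNCCC (KLF factors) and TGATGNAA (ATF4 with C/EBP), where N is any base. For *Nfs1* and *Lyrm4* all of these bases were annotated as protein-coding exons. *Glrx5* and *Isca1* rose during differentiation of WT cells while *Slc25a28* and *Isca2* were not called there, and their 4 stretches are shown. Each reads 5′ to 3′ on the strand of the gene, with matches in capitals and without bases annotated as a protein-coding exon: chr19:43674882-43675131 (minus), chr12:105032368-105032617 (plus), chr13:59769811-59770039 (minus) and chr12:84773153-84773250 (plus).
Slc25a28: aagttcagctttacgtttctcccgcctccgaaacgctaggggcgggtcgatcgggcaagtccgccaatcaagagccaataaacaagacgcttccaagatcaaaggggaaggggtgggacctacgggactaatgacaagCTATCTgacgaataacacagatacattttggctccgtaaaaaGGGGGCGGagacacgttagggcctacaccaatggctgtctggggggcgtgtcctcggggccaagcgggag
Glrx5: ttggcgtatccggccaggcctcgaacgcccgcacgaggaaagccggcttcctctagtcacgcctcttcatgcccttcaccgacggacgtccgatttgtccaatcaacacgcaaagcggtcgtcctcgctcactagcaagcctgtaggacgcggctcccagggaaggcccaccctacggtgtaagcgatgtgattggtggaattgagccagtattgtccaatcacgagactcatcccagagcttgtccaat
Isca1: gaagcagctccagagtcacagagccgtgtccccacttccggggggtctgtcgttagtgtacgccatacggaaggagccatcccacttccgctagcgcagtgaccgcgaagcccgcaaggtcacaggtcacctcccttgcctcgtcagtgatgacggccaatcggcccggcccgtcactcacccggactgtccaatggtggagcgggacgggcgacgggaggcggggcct
Isca2: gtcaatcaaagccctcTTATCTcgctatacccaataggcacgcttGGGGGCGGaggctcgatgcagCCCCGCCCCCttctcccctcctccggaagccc
The stretch before *Isca2* holds a GATA match at -101 from the start and a KLF match at -72, both on the opposite strand, and KLF matches at -51 and -49, which overlap. A second GATA match at -228 lies outside the printed part, within an exon of the neighbouring gene. The *Slc25a28* stretch holds a GATA match at -112 and a KLF match at -70, both on the opposite strand. The *Isca1* stretch runs over exons of *Etohd2*, a noncoding gene antisense to it. None of these motifs was found before *Glrx5*, *Isca1* or *Nfs1*, and *Lyrm4* had KLF matches alone, at -237 and -205. Of all 32851 mouse windows of this length, 22.3% held a GATA match, 45.9% a KLF match and 3.45% an ATF4 match. A match is a run of letters, not a bound site.

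During differentiation of WT cells, *Slc25a37*, *Isca1* and *Glrx5* rose and *Lyrm4* and *Iscu* fell, at both day 2 and day 5. *Slc25a28*, *Nfs1*, *Hscb* and *Isca2* were not called at either day by this test. *Slc25a28* was called lower at day 5 without WT replicate 5, at -0.23 (adjusted p = 0.0421), and higher at day 2 with library totals in place of TMM, at 0.29 (adjusted p = 0.0319). *Isca2* was called higher at day 5 without WT replicates 2 and 5, at 0.26 (adjusted p = 0.0425). By day 2, 3 of these genes passed as higher and 2 as lower than before DMSO, beside 31.5% and 30.7% of all genes tested. At day 5 the counts were again 3 and 2, beside 36.5% and 34.7%. The shares of the 9 genes are thus near those of all genes. The *Glrx5* call at day 2 (log2 0.23 ± 0.076, adjusted p = 0.019) was lost without WT day 2 replicates 1 and 2, at 0.18 (adjusted p = 0.051), and without WT day 0 replicate 1, 4 or 5, with adjusted p up to 0.057, and the *Iscu* call at day 2 (log2 -0.37 ± 0.090, adjusted p = 0.0029) was lost with library totals in place of TMM, at -0.16 (adjusted p = 0.117). For Abcb10-null cells the counts were 4 higher and 0 lower at day 2 (background 23.1% and 20.1%), and 5 higher and 2 lower at day 5 (33.9% and 33.3%). For the 0 falls called by edgeR in Abcb10-null cells at day 2, DESeq2 also called 0, and 0 of the 9 genes had a fall with an unadjusted p under 0.05.

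Between genotypes, the 9 genes moved in both directions. Abcb10-null cells had less *Slc25a37* at each day and less *Isca1* at day 5, and more *Hscb* at each day and more *Lyrm4* from day 2. The day 0 calls among the 9 were 1 rise and 2 falls relative to WT, beside 19.7% and 16.2% of all genes. The day 2 calls were 2 rises and 1 fall, beside 14.9% and 16.9%. The day 5 calls were 3 rises and 2 falls, beside 19.8% and 17.8%. The change from day 0 to day 5 differed between genotypes for 3 genes by the interaction test, 1 with a higher and 2 with a lower change in Abcb10-null cells, beside 16.8% and 14.7% of all genes. The 3 calls at day 0 were lost with all 30 libraries in one fit (adjusted p of 0.0882 to 0.455 for *Slc25a37*, *Glrx5* and *Hscb*), and the 3 calls at day 2 were lost without WT replicate 1, WT replicate 2 or Abcb10-null replicate 1 (adjusted p up to 0.0781 for *Slc25a37*, *Lyrm4* and *Hscb*).

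**Figure D1:**
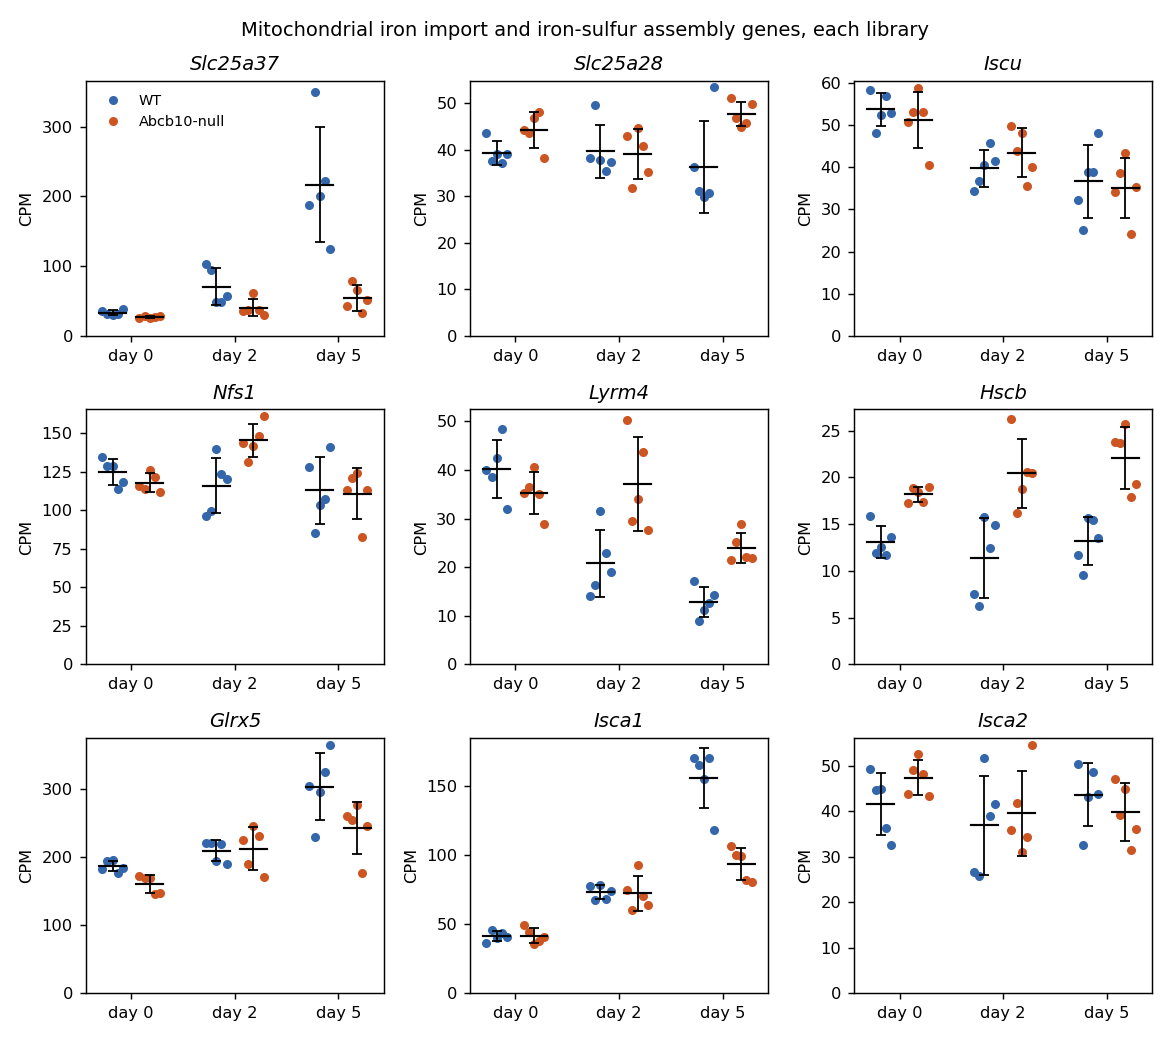
CPM (vertical axes, linear, from 0) of the 9 genes in each of 30 libraries at days 0, 2 and 5, with WT in blue, Abcb10-null in orange, and black bars at the mean ± SD of 5 libraries. *Slc25a37* climbs to 217 CPM at day 5 in WT and reaches 54.4 CPM without Abcb10, while *Hscb* is higher in Abcb10-null cells at all 3 days.

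*Slc25a37*, the erythroid iron importer, showed the largest difference between genotypes at day 5 among the 9 genes, and the largest change from day 0 to day 5 in WT. The WT libraries were at 35.8, 32, 30.6, 31.2 and 38.4 CPM at day 0, 103, 95, 48.6, 48.9 and 58 CPM at day 2 and 187, 349, 201, 223 and 124 CPM at day 5. The Abcb10-null libraries were at 25.3, 28.5, 25.4, 27.9 and 28.9 CPM at day 0, 35.3, 36.7, 62.3, 37.8 and 30.3 CPM at day 2 and 43.6, 78.8, 65.6, 32.9 and 51 CPM at day 5. At days 0 and 5 each Abcb10-null library lay below each WT library, whereas at day 2 Abcb10-null replicate 3 lay among the WT values. In WT the transcript rose 2.21-fold by day 2 and 6.79-fold by day 5 (log2 2.76 ± 0.22, adjusted p = 1.62e-07). It rose 2.16-fold by day 5 in Abcb10-null cells (log2 1.11 ± 0.15, adjusted p = 9.13e-06), so the transcript was induced there as well, to a lower level. Against WT, the log2 difference was -0.31 ± 0.081 at day 0 (adjusted p = 0.00576), -0.93 ± 0.27 at day 2 (adjusted p = 0.0189) and -1.98 ± 0.26 at day 5 (adjusted p = 0.000111). The interaction of genotype and day was -1.65 ± 0.28 (adjusted p = 0.000115). The day 2 call was lost without WT replicates 1 and 2, with a log2 difference of -0.43 (adjusted p = 0.179), and without Abcb10-null replicates 2 and 5, at -0.77 (adjusted p = 0.0631). The day 5 call was kept without WT replicates 2 and 5, at -1.90 (adjusted p = 1.33e-05).

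*Slc25a28*, the mitoferrin found in most tissues, moved little. Its group means stayed between 36.3 and 47.7 CPM, and all neighbours in the order of the 6 groups overlapped. At day 5 the WT libraries were at 36.4, 31.2, 29.8, 30.8 and 53.5 CPM and the Abcb10-null libraries at 51.1, 46.8, 45, 45.8 and 49.8 CPM. WT replicate 5 lay above all Abcb10-null libraries and the other WT libraries below them. The log2 difference of 0.44 ± 0.15 was called (adjusted p = 0.038), but the call was lost on leaving out any library except WT replicate 5, with adjusted p up to 0.109. Without WT replicate 5 the difference was 0.60 (adjusted p = 0.000864), and without WT replicates 2 and 5 it was 0.58 (adjusted p = 0.0015). With library totals in place of TMM it was 0.36 (adjusted p = 0.0902), and with all genes of at least 1 count 0.39 (adjusted p = 0.176). In Abcb10-null cells *Slc25a28* rose by 0.23 ± 0.091 on the log2 scale by day 5 (adjusted p = 0.0335), a call lost without day 0 replicate 1, 2 or 5 or day 5 replicate 1, 4 or 5 (adjusted p up to 0.107). The call was also lost with DESeq2, at 0.22 (adjusted p = 0.0602), and with all 30 libraries in one fit, at 0.23 (adjusted p = 0.142). With all genes of at least 1 count the rise was 0.13 (adjusted p = 0.355).

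Of the core assembly genes, *Lyrm4* changed with both time and genotype and *Nfs1* and *Iscu* changed little between genotypes. *Lyrm4*, whose protein stabilizes the desulfurase, fell in WT from 39.9, 38.6, 42.5, 48.4 and 32 CPM at day 0 to 14.1, 16.4, 31.7, 22.9 and 19 CPM at day 2 and 17.2, 8.85, 11.2, 12.6 and 14.4 CPM at day 5. In Abcb10-null cells it was at 35.3, 36.5, 40.7, 35 and 28.9 CPM at day 0, 50.4, 29.6, 34, 43.8 and 27.7 CPM at day 2 and 21.6, 25.2, 28.9, 22.1 and 21.8 CPM at day 5. Day 5 was thus the lowest level in both genotypes, and at that day each Abcb10-null library lay above each WT library. The fall by day 5 was 2.98-fold in WT (log2 -1.58 ± 0.17, adjusted p = 2.36e-06) and 1.36-fold in Abcb10-null cells (log2 -0.44 ± 0.11, adjusted p = 0.00271). The difference between genotypes was -0.20 ± 0.11 at day 0 (adjusted p = 0.16), 0.73 ± 0.22 at day 2 (adjusted p = 0.0218) and 0.93 ± 0.17 at day 5 (adjusted p = 0.000996), with an interaction of 1.14 ± 0.20 (adjusted p = 0.000143). Without WT replicates 1 and 2 the day 2 difference was 0.52 (adjusted p = 0.155). *Lyrm4* shares 115 exon bases with *Fars2* on the opposite strand. How reads there were counted is not known, since the settings for strand and overlapping genes are not given in the sources used here.

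*Nfs1*, the desulfurase itself, was read at 125 ± 8.36 CPM (WT) and 118 ± 5.91 CPM (Abcb10-null) at day 0, and at 113 ± 21.9 CPM and 111 ± 16.5 CPM at day 5. Its genotype difference was 0.00048 ± 0.12 at day 5, with a 95% interval of -0.27 to 0.27, and it was not called at days 0 or 2 either. The called change of *Nfs1* was a rise from day 0 to day 2 in Abcb10-null cells (log2 0.34 ± 0.089, adjusted p = 0.00822), where the libraries at day 2 (131 to 161 CPM) lay above those at day 0 (112 to 126 CPM). *Nfs1* shares 148 exon bases with *Romo1* on the opposite strand and 256 with *Gm28036* on the same strand. *Iscu*, the scaffold, fell by day 5 in both genotypes, by 1.4-fold in WT (log2 -0.48 ± 0.14, adjusted p = 0.00881) and 1.35-fold in Abcb10-null cells (log2 -0.43 ± 0.12, adjusted p = 0.00442). Its genotype difference was -0.033 ± 0.16 at day 5, with a 95% interval of -0.38 to 0.31. The group ranges of *Iscu* at day 5 overlapped, at 25.1 to 48.1 CPM (WT) and 24.2 to 43.3 CPM (Abcb10-null). *Iscu* has a copy, *Gm16437*, that matches it at 99.0% over 504 bases and held at most 20 counts in any library. The treatment of reads that match both is not given either.

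*Hscb*, the cochaperone that brings the loaded scaffold to Hspa9, was higher in Abcb10-null cells before DMSO and stayed higher. At day 0 the WT libraries were at 15.8, 11.9, 12.5, 11.7 and 13.7 CPM and the Abcb10-null libraries at 17.3, 18.9, 18.5, 17.4 and 19 CPM. At day 2 they were at 7.49, 6.28, 15.7, 12.5 and 14.9 CPM and 26.3, 16.2, 18.8, 20.6 and 20.5 CPM, and at day 5 at 11.7, 9.59, 15.6, 15.5 and 13.6 CPM and 23.8, 23.7, 25.8, 17.9 and 19.3 CPM. The genotypes did not overlap at any of the 3 days. The log2 difference was 0.46 ± 0.10 at day 0 (adjusted p = 0.00136), 0.75 ± 0.24 at day 2 (adjusted p = 0.0285) and 0.77 ± 0.16 at day 5 (adjusted p = 0.00198), and the interaction was not called (0.33 ± 0.18, adjusted p = 0.177). In Abcb10-null cells *Hscb* rose by day 5 (log2 0.40 ± 0.10, adjusted p = 0.00252), a call lost with all genes of at least 1 count, at 0.31 (adjusted p = 0.0901), and with all 30 libraries in one fit, at 0.39 (adjusted p = 0.06). At day 2, WT replicates 1 and 2 held the lowest values, and without them the difference was 0.43 (adjusted p = 0.138).

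**Figure D2:**
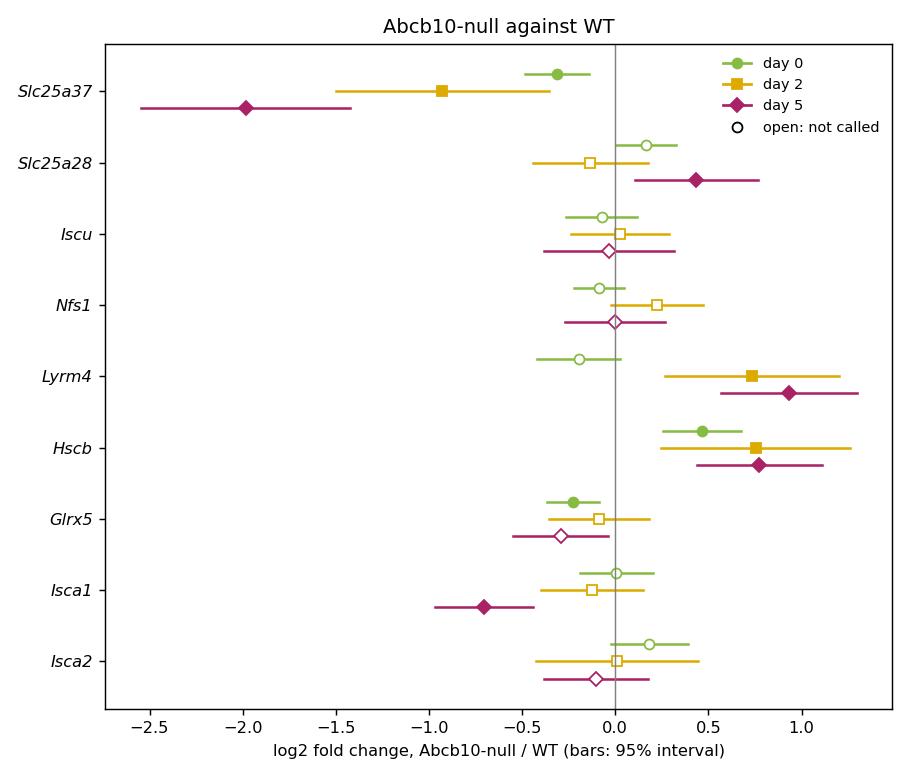
Log2 fold change between genotypes, Abcb10-null over WT (horizontal axis), for each gene at days 0, 2 and 5, with 95% intervals from edgeR and filled symbols for called differences. *Slc25a37* moves from -0.31 to -1.98 over the 3 days, *Hscb* lies above 0 at each, and the intervals of *Iscu*, *Nfs1* and *Isca2* include 0 at each.

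The genes that act after the scaffold differed from each other. *Glrx5*, a monothiol glutaredoxin whose loss stops heme synthesis in zebrafish, rose by day 5 in both genotypes, 1.71-fold in WT (log2 0.77 ± 0.11, adjusted p = 2.45e-05) and 1.64-fold in Abcb10-null cells (log2 0.71 ± 0.088, adjusted p = 2.62e-06). The WT libraries went from 183, 194, 196, 177 and 184 CPM at day 0 to 305, 229.7, 295, 325 and 365 CPM at day 5. The Abcb10-null libraries went from 172, 169, 169, 145 and 148 CPM to 261, 255, 277, 177 and 246 CPM. Its level in Abcb10-null cells was lower at day 0, where the genotypes did not overlap (log2 -0.23 ± 0.067, adjusted p = 0.013). At day 5 the difference was -0.29 ± 0.12 and was not called (adjusted p = 0.0649). It passed the threshold under 5 of the 7 other fits, with DESeq2 at -0.30 (adjusted p = 0.0481). It also passed without WT replicate 2, at -0.39 (adjusted p = 0.00758), and without WT replicates 2 and 5, at -0.34 (adjusted p = 0.0149). The interaction was -0.050 ± 0.14, with a 95% interval of -0.34 to 0.24.

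*Isca1*, an A-type cluster carrier, rose in WT from 35.9, 45.3, 39.6, 43.8 and 40.6 CPM at day 0 to 77.4, 67.3, 78.5, 68.3 and 73.7 CPM at day 2 and 171, 165, 155, 170.2 and 118 CPM at day 5. In Abcb10-null cells it went from 49, 44, 35.3, 37.6 and 40.9 CPM to 74.4, 59.96, 92.7, 70.1 and 63.9 CPM and 106, 100.3, 99.2, 82.2 and 80.5 CPM. The genotypes overlapped at days 0 and 2 and separated at day 5. The rise by day 5 was 3.99-fold in WT (log2 2.00 ± 0.12, adjusted p = 1.16e-08) and 2.46-fold in Abcb10-null cells (log2 1.30 ± 0.10, adjusted p = 1.16e-08), with an interaction of -0.69 ± 0.16 (adjusted p = 0.0016). The genotype difference was -0.12 ± 0.13 at day 2 (adjusted p = 0.478) and -0.70 ± 0.12 at day 5 (adjusted p = 0.000719). *Isca2*, the partner of Isca1, was not called in any of the 8 comparisons with all libraries, although without Abcb10-null replicates 2 and 5 it fell in that clone by day 2 (log2 -0.47 (adjusted p = 0.00117)). It was read at 32.5 to 50.4 CPM (WT) and 31.6 to 47.1 CPM (Abcb10-null) at day 5, and the 95% interval of its day 5 genotype difference was -0.38 to 0.17. *Isca1* shares 314 exon bases with *Etohd2* on the opposite strand. A near copy of *Isca1*, *AK157302*, matches it at 99.3% over 1914 bases and held at most 15 counts in any library. How reads that match both were counted is not given in the sources used here, so their bearing on the *Isca1* level is not known.

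**Figure D3:**
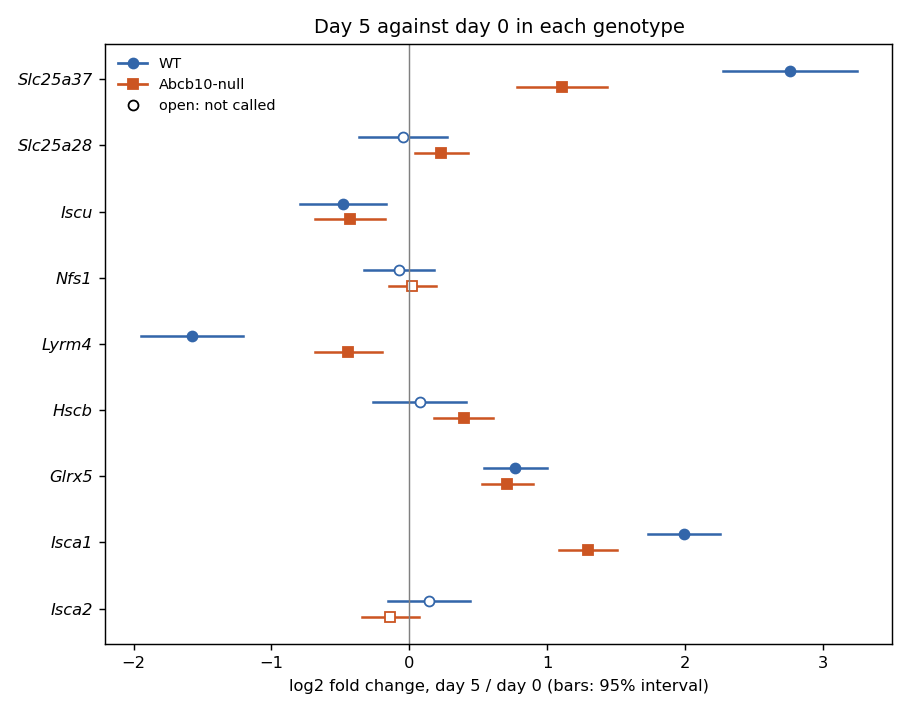
Log2 fold change from day 0 to day 5 (horizontal axis) in WT (blue circles) and Abcb10-null cells (orange squares), with 95% intervals from edgeR and filled symbols for called changes. The WT and Abcb10-null symbols lie 2.76 against 1.11 for *Slc25a37* and -1.58 against -0.44 for *Lyrm4*, and nearly coincide for *Glrx5* and *Iscu*.

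Ordered by group mean, *Slc25a37* was highest in WT at day 5 (217 ± 82.6 CPM), followed by WT at day 2 (70.7 ± 26.3 CPM), Abcb10-null at day 5 (54.4 ± 18.1 CPM), Abcb10-null at day 2 (40.5 ± 12.5 CPM), WT at day 0 (33.6 ± 3.38 CPM) and Abcb10-null at day 0 (27.2 ± 1.74 CPM). The libraries of the highest and of the lowest group were clear of the group next to them, and the ranges of the other neighbours overlapped. By group mean, *Isca1* followed day more than genotype. WT at day 5 (156 ± 21.9 CPM) was clear of all other groups. Abcb10-null at day 5 (93.7 ± 11.7 CPM) was clear of the next group, WT at day 2. It overlapped Abcb10-null at day 2, whose replicate 3 was at 92.7 CPM. The day 2 groups (73 ± 5.14 CPM and 72.2 ± 12.7 CPM) overlapped each other, and so did the day 0 groups (41.4 ± 5.4 CPM and 41 ± 3.68 CPM). *Hscb* followed genotype instead, with the 3 Abcb10-null groups (22.1 ± 3.31 CPM, 20.5 ± 3.71 CPM and 18.2 ± 0.812 CPM at days 5, 2 and 0) overlapping each other and clear of the 3 WT groups (13.2 ± 2.58 CPM, 13.1 ± 1.69 CPM and 11.4 ± 4.3 CPM at days 5, 0 and 2). For *Glrx5*, Abcb10-null at day 0 (160.5 ± 13 CPM, highest 172.4 CPM) was clear of the group next to it, WT at day 0. It overlapped Abcb10-null at day 2, whose lowest library was at 170.2 CPM. For *Slc25a28*, *Iscu*, *Nfs1*, *Lyrm4* and *Isca2*, all neighbours in the order overlapped, with means of 35.1 to 53.7 CPM for *Iscu*, 111 to 145 CPM for *Nfs1*, 12.9 to 40.3 CPM for *Lyrm4* and 36.9 to 47.4 CPM for *Isca2*.

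Levels of different genes were compared per kilobase of annotated exon, merged over all transcripts of a gene (10.68 kb for *Isca1*, 0.905 kb for *Hscb*). Which transcripts were expressed was not determined, and the order of genes rests on these lengths. On this scale *Glrx5* was the most abundant of the 9 transcripts in WT cells, at 50.7 CPM per kb at day 0 and 82.5 at day 5. *Nfs1* ranked second at day 0 (34.6 CPM per kb). *Slc25a37* was at 5.58 CPM per kb at day 0, below *Slc25a28* at 10.5, and at 36 at day 5, above *Slc25a28* at 9.69. In Abcb10-null cells at day 5 the carriers were at 9.03 (*Slc25a37*) and 12.7 CPM per kb (*Slc25a28*). *Lyrm4* was the least abundant in WT at day 5, at 6.16 CPM per kb.

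The other genes of the pathway were taken from lists based on general pathway knowledge. In WT, most of them, heme-linked carriers apart, fell during differentiation while *Slc25a37*, *Isca1* and *Glrx5* rose. Of 14 other mitochondrial iron-sulfur factors, 0 were called higher and 9 lower at day 5, with a median log2 change of -0.71 beside 0.023 over all genes. Of 9 cytosolic assembly genes, 5 were called lower and 0 higher (median -0.50), and of 20 genes for iron-sulfur proteins 15 were lower and 3 higher (median -0.60). *Fech* was among the higher (log2 2.94, adjusted p = 2.53e-10). All 10 mitochondrial reference genes, such as the porin and import receptor genes, were called lower as well, beside 34.7% of all genes (median -1.43). Of the 4 heme-linked carriers tested, 2 were called higher and 1 lower (median 0.52). The median of the 9 import and assembly genes was 0.077. Where edgeR called 0 higher, DESeq2 called 0, 0 and 0 in the mitochondrial, cytosolic and reference lists, and 1, 0 and 0 had a rise with an unadjusted p under 0.05.

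Between genotypes at day 5, more genes were called higher than lower in Abcb10-null cells in the lists of mitochondrial factors and cytosolic factors. This also held for iron-sulfur proteins, but there the share called higher was near that of all genes. This comparison uses the same WT day 5 libraries as the change over time in WT, so the directions in the pair are not independent. Of the 13 other mitochondrial iron-sulfur factors tested, 5 were called higher and 0 lower, with a median of 0.38 beside -0.016 over all genes, of which 19.8% were called higher and 17.8% lower. With library totals in place of TMM, the share of all calls that were higher went from 52.6% to 43%. *Hspa9*, the Hsp70 chaperone that works with Hscb, had the largest called rise, with 364 ± 233 CPM for WT against 1769 ± 347 CPM for Abcb10-null (log2 2.32 ± 0.30, adjusted p = 0.000108). It fell by day 5 in WT (log2 -1.98 ± 0.29, adjusted p = 3.91e-05) and rose in Abcb10-null cells (log2 0.41 ± 0.11, adjusted p = 0.00383). *Nfu1*, a [4Fe-4S] carrier, differed by 0.85 ± 0.15 (adjusted p = 0.000962). *Fdxr*, the reductase that feeds electrons to assembly, differed by 0.31 ± 0.15 (adjusted p = 0.129) and was not called. It was called without WT replicate 5, at 0.43 (adjusted p = 0.0187), and without WT replicates 2 and 5, at 0.41 (adjusted p = 0.0302).

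Of the 9 cytosolic assembly genes, 3 were called higher and 0 lower (median 0.26), led by *Ciapin1* at 0.64 ± 0.13 (adjusted p = 0.00197). Among the 20 genes for iron-sulfur proteins, 4 were called higher and 2 lower (median 0.24), beside 19.8% and 17.8% of all genes. *Elp3*, the Elongator subunit, had the largest called difference above WT (0.77 ± 0.15, adjusted p = 0.00166). *Fech* had the largest below WT, with 526 ± 70.7 CPM for WT against 287 ± 81.9 CPM for Abcb10-null (-0.85 ± 0.16, adjusted p = 0.0015). From day 0 to day 5 in WT, *Elp3* fell (log2 -1.08, adjusted p = 9.1e-06) and *Fech* rose. *Aco1* differed by 0.33 ± 0.10 (adjusted p = 0.0155), a call lost with all genes of at least 1 count, at 0.30 (adjusted p = 0.286). *Sdhb*, a subunit of succinate dehydrogenase (0.36 ± 0.16, adjusted p = 0.0916), was not called. Of the 4 heme-linked carriers tested, *Slc25a38*, the glycine importer of heme synthesis, was called lower (-0.74 ± 0.21, adjusted p = 0.0144) and none higher. *Slc25a39*, a carrier of mitochondrial glutathione, differed by 0.39 ± 0.15 (adjusted p = 0.0508). Without WT replicate 5, *Sdhb* (0.48, adjusted p = 0.0168) and *Slc25a39* (0.51, adjusted p = 0.00615) were called, and likewise without WT replicates 2 and 5, at 0.36 (adjusted p = 0.0479) and 0.42 (adjusted p = 0.0156). The mitochondrial reference genes moved in the same direction as the assembly lists: 6 of 10 were called higher and 0 lower (median 0.43), with *Tomm20* at 0.91 ± 0.15 (adjusted p = 0.000582). The median of the 9 import and assembly genes was -0.033. Where edgeR called 0 lower, DESeq2 called 1, 0 and 0 in the mitochondrial, cytosolic and reference lists, and 2, 1 and 0 had a fall with an unadjusted p under 0.05. Among the heme-linked carriers, where edgeR called 0 higher, DESeq2 called 1 and 1 had a rise with an unadjusted p under 0.05. Beside these, erythroid markers were lower, led by *Slc4a1* (band 3) at -3.13 ± 0.40 (adjusted p = 9.3e-05), and 1 of the 3 tested markers of other cell types, *Pf4*, was higher (0.86 ± 0.28, adjusted p = 0.0302). The *Pf4* call was lost without WT replicates 2 and 5, at 0.54 (adjusted p = 0.112), and on leaving out any one of replicates 2 and 4 of WT and replicates 1 and 4 of the null clone, with adjusted p up to 0.0847. The part of either in the differences described was not tested.

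**Figure D4:**
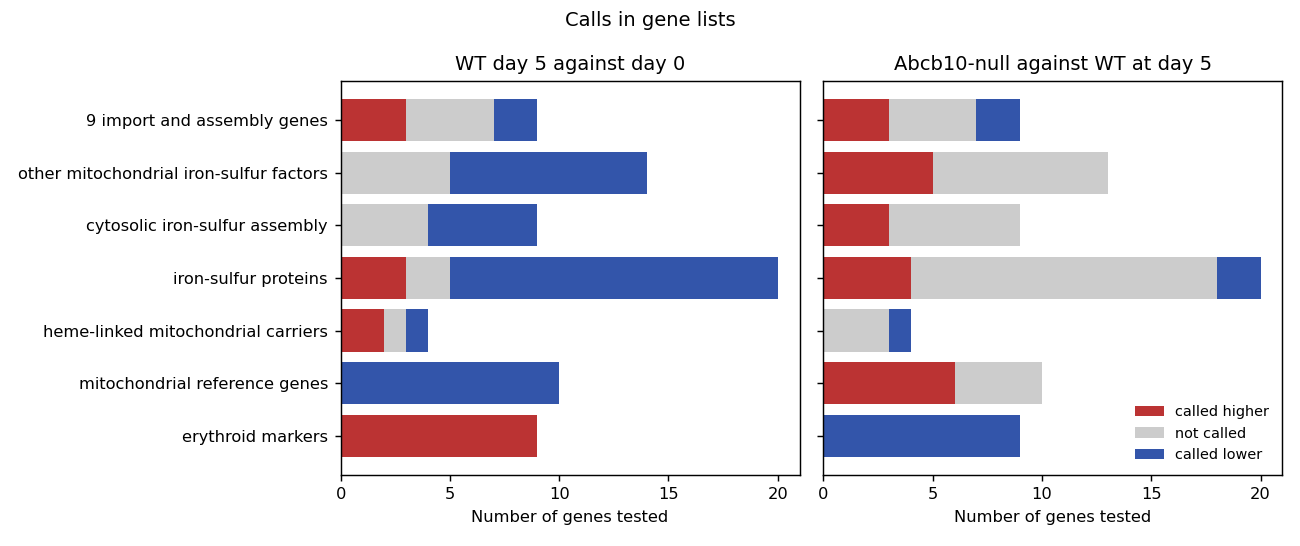
Number of genes tested (horizontal axis) that were called higher (red), not called (grey) or called lower (blue) in each list, for WT day 5 against day 0 (left) and Abcb10-null against WT at day 5 (right). On the left all 10 mitochondrial reference genes are lower and all 9 erythroid markers higher, and on the right 6 of 10 are higher and 9 of 9 lower, while the 9 import and assembly genes are split in both panels.

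The genes whose pattern was most like that of each of 3 of the 9 were ranked by Pearson's r of log2(CPM + 0.5) over the 30 libraries, among 12137 genes with a mean of at least 1 CPM. These libraries share genotype and day, so r describes likeness and is given without a test. For *Slc25a37* they were *Kel* (0.95), *Ranbp10* (0.94), *Ctsf* (0.94), *Rsbn1l* (0.94) and *Sox6* (0.94). For *Glrx5* they were *Fbxo28* (0.90), *Ogfod2* (0.89), *Car2* (0.89), *Slc43a1* (0.89) and *Mybpc3* (0.89). For *Slc25a28* the values were lower, with *Ilvbl* (0.78), *Vps18* (0.76), *Cebpb* (0.75), *Trim41* (0.74) and *Cox6a2* (0.74). Among the 9 genes, *Slc25a37* was most like *Isca1* (r = 0.86) and *Glrx5* (0.76), and most unlike *Lyrm4* (-0.87). The ranking changed with the measure: with Spearman's rho, 0 of the 5 genes were shared for *Slc25a37*, 2 for *Glrx5* and 3 for *Slc25a28*.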

How the data were processed

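MEL cell RNA from both genotypes was depleted of ribosomal and globin RNA and made into stranded libraries by the authors, who trimmed adapters with cutadapt, aligned read pairs to GRCm38 with STAR 2.6.1b in 2 passes and counted them on Ensembl gene models using featureCounts 1.6.3. The deposited values are raw read counts per gene, neither normalized nor filtered by the authors. Globin depletion and the counting of overlapping genes may bear on levels. Of 54532 genes, 9219 had no count.

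Counts were tested with edgeR 4.0.16 (R 4.3.3; TMM, filterByExpr, glmQLFit, glmQLFTest, Benjamini-Hochberg adjustment over all genes), using the libraries of the groups compared (10 each, and 20 for the interaction). SE was derived from the fitted change and its F statistic. Levels used TMM over all 30 libraries. Alternatives were DESeq2 1.42.0 and its size factors, library totals, 2 filters, all 30 libraries, a replicate block and each library left out. The fits of genotypes at day 5 and of the interaction were also run on simulated counts. These varied independently between libraries, so that run does not bear on libraries that deviated together. Replicates differed beyond counting error (lowest chi-square per degree of freedom 6.48). Gene lists came from general pathway knowledge: 14 mitochondrial assembly factors, 9 cytosolic, 20 iron-sulfur proteins, 5 heme-linked carriers, 10 mitochondrial reference genes, 9 matched erythroid markers and 10 markers of other cells. Members and lists were chosen with earlier results of these data known. Named genes were the members, *Abcb10*, 11 pathway genes (some are not reported here), the largest called rise and fall in each list at day 5 between genotypes, and the 5 genes most like 3 members.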

Additional observations from a re-analysis of the deposited data

Results flagged for a closer look

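Among 60 sets of 5 libraries (the 9 genes and *Abcb10* in each genotype and day), 5 held a library far from the others, by a gap to its nearest neighbour that exceeded Dixon's 95% limit of 0.71 of the range. Chance gives about 1 in 20. At day 2, Abcb10-null replicate 3 had the highest *Slc25a37*, at 62.3 CPM with the next library at 37.8 CPM, and also the highest *Abcb10*, at 320.2 CPM with the next at 191 CPM. *Slc25a28* was highest in WT day 2 replicate 2, at 49.6 CPM with the next at 38.2 CPM, and in WT day 5 replicate 5, at 53.5 CPM with the next at 36.4 CPM. *Nfs1* was lowest in Abcb10-null day 5 replicate 4, at 82.5 CPM with the next at 113 CPM.

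The change from day 0 to day 5 differed between the genotypes, by the interaction term of edgeR, for 3 of the 9 genes: *Slc25a37* by -1.65 ± 0.28 on the log2 scale (adjusted p = 0.000115), *Lyrm4* by 1.14 ± 0.20 (adjusted p = 0.000143) and *Isca1* by -0.69 ± 0.16 (adjusted p = 0.0016), each Abcb10-null minus WT. Each was called when any 1 library was left out.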

How the results depend on the processing

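Of 504 values of the 9 genes under the 7 other fits, 461 kept their direction and their side of the threshold, as did 735 of 810 with 1 library left out, and the values that changed sign were not called with all libraries. The calls of *Slc25a37* (days 0 and 5), *Isca1* and *Lyrm4* (day 5) and *Hscb* (days 0 and 5) between genotypes were kept on leaving out each library. So was that of *Glrx5* at day 0, with adjusted p up to 0.0466. At day 0, with all 30 libraries in one fit, which share one estimate of the spread, 0 of the 9 genes were called higher and 0 lower, and 1584 in place of 4642 of all genes were called. The values were -0.30 (adjusted p = 0.455) for *Slc25a37*, -0.22 (adjusted p = 0.201) for *Glrx5* and 0.47 (adjusted p = 0.0882) for *Hscb*. With library totals 2 were called higher at day 0, and leaving out 1 library gave 1 to 2. At day 2 between genotypes, leaving out 1 library gave 0 to 2 called higher and 0 to 1 called lower: the 3 calls (*Slc25a37*, *Lyrm4*, *Hscb*) were lost without WT replicate 1, WT replicate 2 or Abcb10-null replicate 1, with adjusted p of 0.0522 to 0.0781. *Lyrm4* and *Hscb* also lost theirs without Abcb10-null replicate 4. The 3 sets of 2 libraries left out together were chosen after seeing the data. Without WT replicates 1 and 2, 0 were called higher and 0 lower, and without Abcb10-null replicates 2 and 5, 0 were called lower. Library totals gave 1 called lower in WT at day 2, and leaving out Abcb10-null replicate 5, or replicates 2 and 5, gave 1 called lower in Abcb10-null cells at day 2 (leaving out 1 library, 0 to 1). In Abcb10-null cells at day 5, 3 were called higher with all genes of at least 1 count and 3 with all 30 libraries in one fit. Without WT day 5 replicate 5, or replicates 2 and 5, 2 were called higher in the interaction (leaving out 1 library, 1 to 2), the added gene being *Slc25a28* at 0.45 (adjusted p = 0.00682). With Spearman's rho, 0, 3 and 2 of the 5 most like genes were shared for *Slc25a37*, *Slc25a28* and *Glrx5*, and in WT libraries alone 1, 0 and 1. Of the 9 genes, *Slc25a28* (without Abcb10-null replicate 5, 0.22, adjusted p = 0.0265) and *Lyrm4* (without WT replicate 5, -0.28, adjusted p = 0.0448) were also called between genotypes at day 0, and *Nfs1* at day 2 with all 30 libraries in one fit, at 0.27 (adjusted p = 0.0416). The rise of *Nfs1* in Abcb10-null cells by day 2 was lost with all genes of at least 1 count, at 0.32 (adjusted p = 0.0736). The cause of these changes was not tested. Over all alternatives, the genes called higher between genotypes at day 5 numbered 2 to 8 for other mitochondrial iron-sulfur factors (5 with all libraries and edgeR), 2 to 4 for cytosolic assembly (3), 2 to 8 for iron-sulfur proteins (4), 0 to 1 for heme-linked carriers (0) and 4 to 9 for reference genes (6), and those called lower 0 to 2, 0 to 1, 1 to 2, 1 to 1 and 0 to 0. In WT at day 5 the counts called lower were 9 to 9, 5 to 5, 13 to 16, 0 to 1 and 10 to 10, and those called higher 0 to 2, 0 to 0, 1 to 3, 2 to 2 and 0 to 0. Library totals moved the median log2 change of all genes by 0.21 (WT day 2), 0.10 (WT day 5) and -0.13 (interaction), and the share of calls that were higher from 54.9% to 65%, 46.8% to 37.9% and 52.6% to 43% (genotypes at days 0, 2 and 5), 50.7% to 66.6% (WT day 2) and 53.4% to 38.4% (interaction).

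Changes of sign are given as log2 changes. No value of opposite sign to that with all libraries and edgeR was called. With DESeq2, *Isca1* -0.0063 (genotypes at day 0), *Nfs1* -0.0091 (genotypes at day 5). With DESeq2's size factors in edgeR, *Isca1* -0.010 (genotypes at day 0), *Nfs1* -0.016 (genotypes at day 5). Without replicates 1 and 2 of WT day 2, *Slc25a28* 0.0085 (genotypes at day 2), -0.019 (WT day 2 over day 0), *Iscu* -0.048 (genotypes at day 2), *Glrx5* 0.00031 (genotypes at day 2), *Isca2* -0.23 (genotypes at day 2), 0.16 (WT day 2 over day 0), *Nfs1* 0.11 (WT day 2 over day 0), *Hscb* 0.20 (WT day 2 over day 0). With library totals in place of TMM, *Iscu* -0.062 (genotypes at day 2), -0.079 (interaction), *Isca2* -0.067 (genotypes at day 2), 0.10 (WT day 2 over day 0), *Nfs1* -0.074 (genotypes at day 5), 0.17 (WT day 2 over day 0), 0.029 (WT day 5 over day 0), -0.0019 (null day 5 over day 0), -0.031 (interaction), *Hscb* 0.055 (WT day 2 over day 0), *Slc25a28* 0.060 (WT day 5 over day 0). Without replicates 2 and 5 of Abcb10-null day 2, *Glrx5* 0.048 (genotypes at day 2), *Isca1* 0.0035 (genotypes at day 2), *Isca2* -0.23 (genotypes at day 2). With genes of at least 10 counts in every library, *Isca2* -0.0013 (genotypes at day 2), *Nfs1* -0.013 (genotypes at day 5). With all genes of at least 1 count, *Nfs1* -0.030 (genotypes at day 5), -0.067 (null day 5 over day 0). Without replicates 2 and 5 of WT day 5, *Nfs1* -0.024 (genotypes at day 5). Leaving out 1 library gave *Iscu* -0.13 to 0.0075 (genotypes at day 0), -0.013 to 0.084 (genotypes at day 2), -0.15 to 0.070 (genotypes at day 5), -0.048 to 0.17 (interaction), *Isca1* -0.065 to 0.054 (genotypes at day 0), *Isca2* -0.14 to 0.15 (genotypes at day 2), -0.22 to 0.018 (WT day 2 over day 0), *Nfs1* -0.10 to 0.078 (genotypes at day 5), -0.083 to 0.045 (WT day 2 over day 0), -0.17 to 0.013 (WT day 5 over day 0), -0.010 to 0.073 (null day 5 over day 0), *Hscb* -0.27 to 0.031 (WT day 2 over day 0), *Slc25a28* -0.23 to 0.019 (WT day 5 over day 0), *Lyrm4* -0.016 to 0.19 (null day 2 over day 0), *Glrx5* -0.13 to 0.015 (interaction). The lower end for *Slc25a28* in WT at day 5, without WT replicate 5, was called.

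The replicate numbers were not taken as a pairing: among 75 same-numbered pairs across groups, deviations from the group means correlated at r values that ranged from -0.40 to 0.52, with 17 over 0.1. With the replicate number as a block, 70 of 72 values of the 9 genes kept their call, and 2 lost it: *Glrx5* in WT at day 2, at 0.22 (adjusted p = 0.0554), and *Slc25a28* in Abcb10-null cells at day 5, at 0.23 (adjusted p = 0.0543). Between genotypes at day 5 the block gave 3 called higher and 2 lower, as without it.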
